A study of Mus musculus with 2 samples.

Results

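Amino acids enter and leave mammalian cells, and cross the membranes of their lysosomes, through solute carriers that fall into families by sequence. The genes described here are those of the Slc1, Slc6, Slc7, Slc36, Slc38 and Slc43 families, taken as every non-control spot whose gene name on the array started with Slc1a, Slc6a, Slc7a, Slc36a, Slc38a or Slc43a, apart from Slc7a5 and Slc7a11. This gave 58 genes with 72 probes and 90 spots, of 31709 genes with 39429 probes and 43020 spots on the array. The rule goes by gene name and uses no measured value, although the families were picked with earlier results of these data known. The families held 7 Slc1 genes, 19 Slc6 genes, 14 Slc7 genes, 4 Slc36 genes, 11 Slc38 genes and 3 Slc43 genes. The Slc7 names included Slc7a6os, an opposite-strand gene beside Slc7a6 that is not a transporter.

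The RNA came from mouse BaF/3 (#BEB1) cells and from the parental Ba/F3 cells, an interleukin-3-dependent line of the early B lineage. BaF/3 (#BEB1) is 1 clone. It was grown out of parental cells infected with a retroviral cDNA library of rat CG4 oligodendrocyte precursor cells and sorted repeatedly for binding of an Ecrg4–Fc fusion protein, whereas the parental line is an unsorted population. Both lines were kept in serum-containing medium with interleukin-3, and no other treatment was described for the array samples. Each line was measured on 1 Agilent one-colour array, so no value has a replicate, no test was possible and every difference below is a size only.

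The deposited records disagree on which array holds which line. The value table names as BaF/3 (#BEB1) the array whose scanner output is filed under the parental cells, and the reverse, with r = 0.999996 and 0.999998 across probes for these crossed matches against 0.982285 and 0.982286 for the uncrossed ones. The array filed as parental and tabulated as BaF/3 (#BEB1) is array A, and the array filed as BaF/3 (#BEB1) and tabulated as parental is array B. All differences are log2 values of array A minus array B, so a positive one means higher in BaF/3 (#BEB1) if the table is right and lower in BaF/3 (#BEB1) if the scanner files are right. Levels are scaled signals, meaning multiples of the 75th percentile of the array, which was 1506 intensity units on array A against 1080 on array B. The share of probes well above background was 49.4% for array A and 49.9% for array B, and no spot was saturated on either (0 and 0). For the 211 probes that were printed at 10 spots and cleared the background at each, the median SD of a difference between spots was 0.05 on the log2 scale. This is a spread within the arrays and does not include that between cultures.

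As a check of the cell type, the interleukin-3 receptor genes Il3ra, Csf2rb and Csf2rb2 were well above background on both arrays, with differences of 0.40, −1.86 and −1.60, and Kit was dim (not well above background) on both. Of 11 early B lineage markers with a probe, Ptprc (0.75), Cd79b (−2.30) and Vpreb1 (−1.39) were measured and 8, among them Pax5 and Rag1, were dim on both. Of 5 oligodendrocyte precursor markers only Cspg4 was measured (−0.26). Of the other markers, 1 of 4 in the neuron list was measured on both arrays (Snap25, −0.61), 2 of 3 in the T cell list (Cd3e, 0.22, and Lck, 0.19), 2 of 3 in the macrophage list (Csf1r, −0.46, and Adgre1, 0.90) and 1 of 4 in the epithelium list (Krt8, −1.01). The part of these marker differences in the transporter values was not tested.

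The families differ in what they carry and how. Slc1 proteins couple glutamate uptake to sodium or exchange small neutral amino acids such as alanine, serine and glutamine. Slc7 proteins are cationic amino acid transporters or light chains that need a heavy chain, Slc3a2 or Slc3a1, to reach the membrane. Slc38 proteins are sodium-coupled carriers of glutamine and other neutral amino acids, some of them on lysosomes, Slc36 proteins move small amino acids together with protons, Slc43 proteins facilitate the passage of large neutral amino acids or, for Slc43a3, purine bases, and Slc6 proteins carry neurotransmitters, glycine, taurine, creatine and proline. Rapidly dividing blood cells rely on such carriers to supply protein synthesis and to keep the mTORC1 kinase informed of amino acid supply.

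The probes behind the larger differences are shown by their first 30 bases of 60, 5′ to 3′, since a difference on an array is that of 1 short stretch of a transcript. Positions are those of the whole probe in mm9, and whether a probe lies in a coding exon or a UTR was not resolved here. Capitals mark the bases that the other Slc6a9 probe also covers, and the other sequences are in lower case throughout. The Slc6a9 probes share 51 bases and are close to repeats of 1 measurement.
Slc36a2, chr11:54972134-54972193, minus strand: gcaatgaacatcttctgttacctgtcgggc
Slc38a7, chr8:98360074-98360133, minus strand: agcatccagacttgctgaattgttgttctc
Slc7a9, chr7:36250920-36250979, plus strand: ccatcactcgtagcccaaagctgtgatcaa
Slc43a2, chr11:75387219-75387278, plus strand: ggttttctcttgttttatcatgattctttt
Slc6a9, chr4:117541842-117541901, plus strand: gcccagtgtGTGCAGAACTAGGGTTTTAAA
Slc6a9, chr4:117541851-117541910, plus strand: GTGCAGAACTAGGGTTTTAAAGTCCGTAGG
Slc6a4, chr11:76845777-76845836, plus strand: ctccgggcccattacaaactatataaatgg

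Of the 58 genes, 23 were well above background on both arrays (39.7%, against 46.7% of all genes), 1 on array A only, 2 on array B only and 32 on neither. Among the 23, Slc38a7 and Slc6a9 passed 2-fold towards array A, which is 2 genes (8.70%) against a background of 3.85% of the 14815 genes measured on both arrays. Slc36a2, Slc7a9 and Slc43a2 passed 2-fold towards array B, which is 3 genes (13.0%) against a background of 7.30%. The counts are too small to read these shares as different from the background. The differences of the 23 genes ran between −4.00 and 1.35 around a median of 0.01, and the median of all genes was −0.02. There were 12 genes above 0 and 11 below it. Without Slc7a6os the median was −0.01 over 22 genes. Scaling each array to its median moved the median of all genes by 0.29 and with it Slc36a1, Slc43a3, Slc6a13 and Slc6a6 to the other side of 0, giving 16 genes above 0 and 7 below. The median of the members exceeded that of all genes by 0.03, and by 0.12 with quantile normalisation, 0.09 with normexp correction and 0.15 with the brightest probe of each gene. The excess was 0.11 with the median over probes, 0.01 where 1 array above background was enough, and −0.004 with no filter on dim probes.

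**Figure D1:**
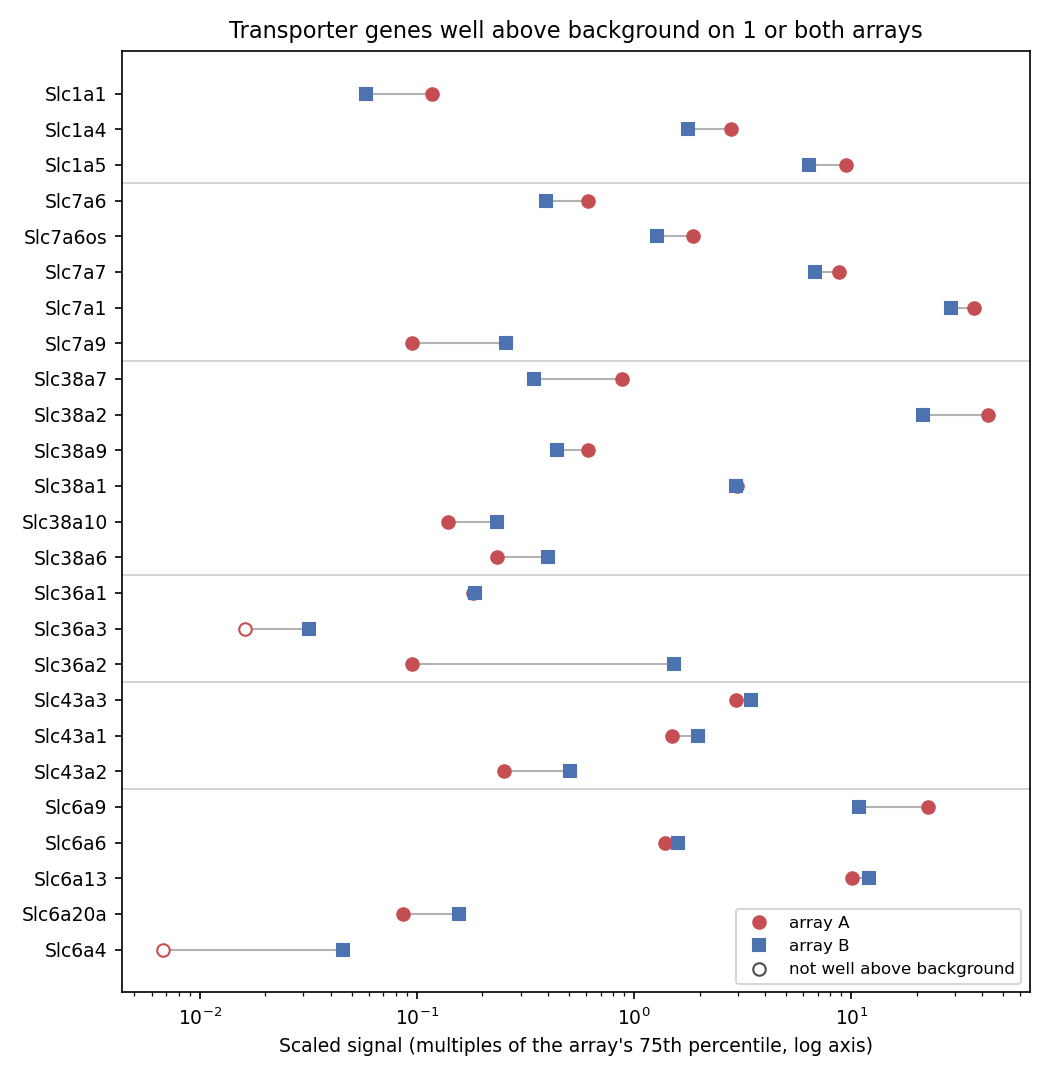
Scaled signal (multiples of the 75th percentile of the array, log axis) of 25 transporter genes well above background on at least 1 array, by family. Circles are array A, squares array B, and open symbols are values not well above background. Slc36a2 has the widest gap, 0.0952 on array A against 1.52 on array B.

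The proton-coupled Slc36 family held the widest difference. Slc36a2, a carrier of glycine, proline and alanine, had a scaled signal of 0.0952 on array A against 1.52 on array B. Its difference of −4.00, 16.0-fold higher on array B, had a spot error of 0.21, combined over the arrays from the errors of the scanner software. Only 13 of the 14815 genes lay further towards array B. Slc36a2 has family members on either side on chromosome 11. Slc36a3 cleared the background on array B only, at 1 of its 2 probes, 33.6 kb from that of Slc36a2. It had 0.0161 on array A against 0.0318 on array B at that probe. In the main setting its excess on array B was at least 1.73-fold, a lower bound that leaves its full size unknown. This bound, −0.79 on the log2 scale, was −0.50 with median scaling and with quantile normalisation. It was −0.45 with normexp correction and −0.88 when scaled to probes clear of background on both arrays. Slc36a1, which moves small amino acids out of lysosomes and across the cell membrane, has its measured probe 75.2 kb away on the other side and had 0.181 on array A against 0.185 on array B, a difference of −0.04. That value came from 1 of its 2 probes, the second being dim on both arrays, and it turned to 0.25 with median scaling and 0.15 with quantile normalisation. It kept its sign in 9 of the 11 alternative settings, and was −0.84 when the dim probe was counted too. Slc36a4, a carrier of proline and tryptophan, was dim on both arrays.

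The Slc38 family held the largest difference towards array A, that of Slc38a7, and members on both sides of 0. Slc38a7, which exports glutamine and asparagine from lysosomes, had 0.880 on array A against 0.346 on array B, 2.54-fold higher on array A (1.35, spot error 0.21). There were 230 genes further towards array A. Slc38a2, the sodium-coupled carrier of neutral amino acids that many cells raise when amino acids run short, had 42.8 on array A against 21.5 on array B, 1.99-fold higher and so just short of 2-fold (0.995, spot error 0.20). Slc38a9, the lysosomal arginine sensor that signals to mTORC1, had 0.613 on array A against 0.442 on array B (0.47). Slc38a6 and Slc38a10 lay the other way. Slc38a6 had 0.234 on array A against 0.401 on array B (−0.78), and Slc38a10 had 0.139 on array A against 0.234 on array B (−0.75). Slc38a1, a glutamine carrier whose nearest probe lies 112 kb from that of Slc38a2 on chromosome 15, had no difference of that size. Its 3 probes gave 0.14, 0.09 and −0.19, and the gene 0.01, a value that fell on either side of 0 across the scalings.

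The 3 measured Slc1 genes were higher on array A, under each of the 11 alternative settings too. Slc1a5, the glutamine exchanger, had 22.8 on array A against 13.2 on array B at 1 probe (0.79) and 3.92 on array A against 3.07 on array B at the other (0.35), so the probes differed in size and not in direction. Slc1a4, an exchanger of alanine, serine and cysteine, had 2.79 on array A against 1.78 on array B (0.65). Slc1a1, which takes up glutamate and cysteine, was printed at 10 spots. Across them it ran between 0.102 and 0.143 on array A, with a median of 0.115, and between 0.0461 and 0.0764 on array B, with a median of 0.0575, so the spots of the arrays did not overlap. The mean difference was 0.997 with an SD of 0.28 over the spots, the spots ranged between 0.61 and 1.63, and 4 of 10 passed 2-fold. Its place beside the 2-fold limit depended on the background and scaling steps, since normexp correction gave 0.42 and quantile normalisation 1.23. Slc1a2, Slc1a3, Slc1a6 and Slc1a7, which carry glutamate in glia and neurons, were dim on both arrays.

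**Figure D2:**
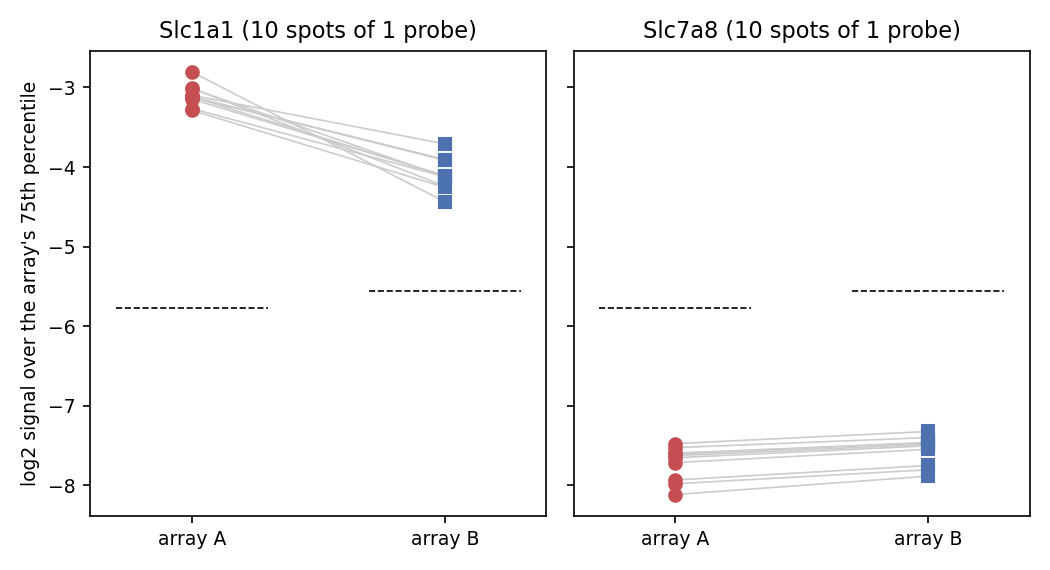
The 10 spots of the Slc1a1 probe and of the Slc7a8 probe, on a log2 scale, scaled to the 75th percentile of each array, with lines joining the same spot position on arrays A and B and dashed lines at the lowest signal well above background on each array. Every Slc1a1 spot lies above the dashed lines and is higher on array A, and every Slc7a8 spot lies below them.

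Among the Slc7 genes, the cationic amino acid transporter Slc7a1 and the light chains Slc7a6 and Slc7a7, which pair with Slc3a2, lay towards array A, each by less than 2-fold. Slc7a1, the arginine and lysine carrier that also serves ecotropic murine retroviruses as a receptor, had 36.7 on array A against 28.8 on array B (0.35). Slc7a6 and Slc7a7 exchange cationic for neutral amino acids. Slc7a6 had 0.615 on array A against 0.395 on array B (0.64), and Slc7a7 had 8.77 on array A against 6.79 on array B (0.37). Their heavy chain Slc3a2 had 55.2 on array A against 36.7 on array B (0.59), and the left-out light chains Slc7a5 and Slc7a11, which also pair with it, differed by 0.32 and −0.12. Slc7a6os, with a probe 2.29 kb from that of Slc7a6, had 1.86 on array A against 1.28 on array B (0.54). Slc7a9, the light chain for cystine and dibasic amino acids in kidney and intestine, stood apart with 0.0951 on array A against 0.258 on array B, 2.71-fold higher on array B (−1.44, spot error 0.22). There were 429 genes further towards array B. Slc3a1, the heavy chain that Slc7a9 pairs with, was dim on both arrays. Slc7a2, Slc7a3, Slc7a4, Slc7a8, Slc7a10, Slc7a12, Slc7a13, Slc7a14 and Slc7a15 were dim too, Slc7a8 at all 10 of its spots, with 0.00360 to 0.00561 on array A and 0.00422 to 0.00624 on array B.

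Every Slc43 gene was measured, and the 3 lay towards array B. Slc43a2, a facilitative carrier of branched-chain amino acids, phenylalanine and methionine, had 0.251 on array A against 0.509 on array B, 2.02-fold higher on array B (−1.02, spot error 0.21). It fell short of 2-fold with median scaling (−0.73), quantile normalisation (−0.94), normexp correction (−0.90) and the table of the authors (−0.99). Slc43a1, a related carrier of large neutral amino acids, had 1.4996 on array A against 1.9587 on array B (−0.39). Slc43a3, the purine base carrier, had 2.95 on array A against 3.44 on array B (−0.22), and its sign turned with median scaling (0.07).

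**Figure D3:**
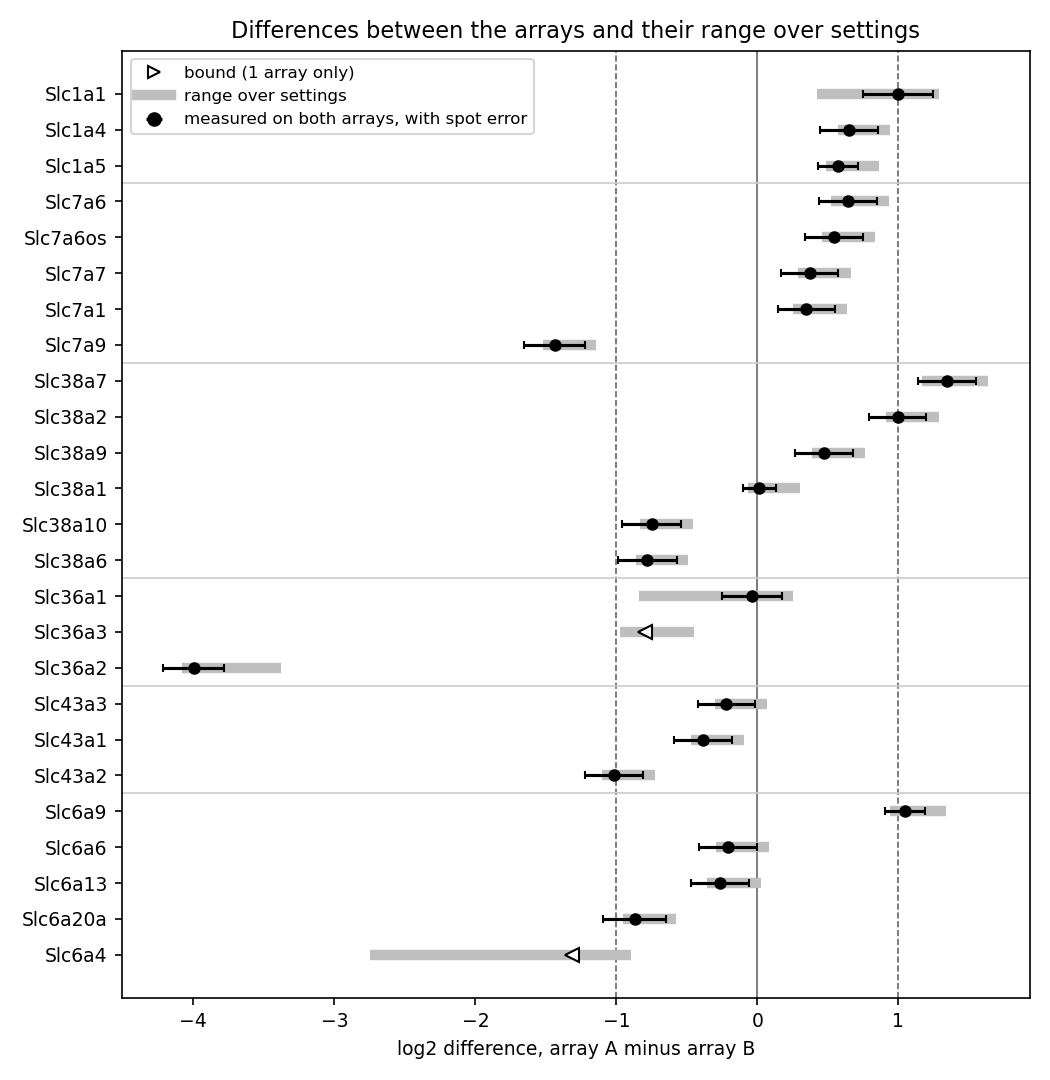
Difference on the log2 scale (array A minus array B) for the same 25 genes by family. Points are genes measured on both arrays, with spot errors combined from those of the scanner software. Triangles are bounds for genes that cleared the background on 1 array only. Grey bars span the 11 alternative settings, and dashed lines mark 2-fold. Slc36a2, Slc7a9 and Slc38a7 keep their grey bars outside the dashed lines, and for the bounds the grey bars include settings that used the dim signal itself.

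The Slc6 family was mostly dim, with 4 of 19 genes measured on both arrays. Slc6a9, the glycine transporter that also feeds haem synthesis in red cell precursors, was measured on both by a pair of probes. Its overlapping probes gave 24.7 on array A against 12.07 on array B (1.03), and 20.4 on array A against 9.77 on array B (1.06). The gene was 2.07-fold higher on array A (1.05). The spot error was 0.20 at each probe, and 0.14 for the gene if the overlapping probes are taken as independent. There were 500 genes further towards array A, and Slc6a9 fell short of 2-fold when scaled to probes clear of background on both arrays (0.96) and under quantile normalisation (0.94). Slc6a13, a carrier of GABA and taurine, had 10.07 on array A against 12.099 on array B (−0.26), and the taurine transporter Slc6a6 had 1.38 on array A against 1.60 on array B (−0.21). Both signs turned with median scaling, to 0.03 and 0.08. Slc6a20a, a proline carrier, had 0.0859 on array A against 0.157 on array B (−0.87), while its close copy Slc6a20b, 41.8 kb away, was dim.

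Some genes were seen on 1 array only, near the lower end of what the arrays measured. Across all genes, 785 cleared the background on array A only and 36.7% of these had a bound of at least 2-fold. Among the members, Slc6a4, the serotonin transporter, cleared the background on array B only, with 0.00681 on array A against 0.0456 on array B, so that its excess on array B was at least 2.49-fold. Across all genes, 906 cleared the background on array B only and 53.0% of these had a bound of at least 2-fold, so 1 of the 2 member genes of this kind was close to that share. The bound for Slc6a4 fell to 0.89 on the log2 scale after normexp correction, below 2-fold.

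The 32 genes dim on both arrays included carriers known from brain, kidney and intestine, although Slc7a9, the light chain of kidney and intestine, was measured on both. In the Slc6 family they were the monoamine transporters Slc6a2 and Slc6a3, the creatine transporter Slc6a8, the GABA and betaine carriers Slc6a11 and Slc6a12, and Slc6a7, Slc6a14, Slc6a15, Slc6a16, Slc6a17, Slc6a18, Slc6a19 and Slc6a20b. In the Slc38 family they were Slc38a3, Slc38a4, Slc38a5, Slc38a8 and Slc38a11. A dim probe shows only that no signal stood well above background, and it does not show that the gene was silent.

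The promoters were searched for a pair of motifs on both strands, TGATGNAA, the core of the composite site through which C/EBP and ATF proteins act in the amino acid response, and CACGTG, the E-box bound by factors such as Myc and the lysosomal regulator Tfeb. RefSeq promoters (GRCm38.p6, 250 bases before to 50 after a start) were found for 41 of the 58 genes, and for 18 of the 23 measured ones. Slc36a2, the gene with the widest difference, was among the measured genes without one. TGATGNAA stood in 2 of the 41 genes, Slc1a4 and Slc7a7, and in 3.97% of all 32851 promoters. CACGTG stood in 9 of the 41, and in 7.15% of all promoters. Of these genes Slc36a1 (−0.04), Slc38a7 (1.35) and Slc43a1 (−0.39) were measured, and the rest were dim on both arrays. Of 61 member promoters, 4.92% held the first motif and 14.8% the second. Genes can have several promoters here, and a match is a description of letters only. The promoter of Slc38a7, the gene with the largest difference towards array A, and that of Slc1a4 follow with the motif in capitals. In Slc38a7 the E-box starts 34 bases before the transcript start, and in Slc1a4 the match, on the opposite strand, starts 4 bases before it.
Slc38a7 promoter, GRCm38.p6, chr8:95853442-95853741, minus strand: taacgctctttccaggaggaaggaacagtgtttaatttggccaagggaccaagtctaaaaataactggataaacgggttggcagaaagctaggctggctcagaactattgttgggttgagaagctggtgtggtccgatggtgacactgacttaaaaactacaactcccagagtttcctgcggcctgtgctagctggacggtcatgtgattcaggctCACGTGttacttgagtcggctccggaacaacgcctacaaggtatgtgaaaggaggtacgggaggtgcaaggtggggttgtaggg
Slc1a4 promoter, GRCm38.p6, chr11:20332664-20332963, minus strand: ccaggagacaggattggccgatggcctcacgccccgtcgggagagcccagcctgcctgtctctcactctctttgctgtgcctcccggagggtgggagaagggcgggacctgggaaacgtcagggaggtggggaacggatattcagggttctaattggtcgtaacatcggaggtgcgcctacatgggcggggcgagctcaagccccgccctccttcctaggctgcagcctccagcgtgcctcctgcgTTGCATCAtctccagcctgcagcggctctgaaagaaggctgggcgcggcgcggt

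Genes that work with these carriers were set beside them, in lists chosen with earlier results of these data known. Of 23 heavy chains and other amino acid carriers, 14 were measured, with a median of 0.03. Only the lysosomal peptide and histidine carrier Slc15a3 passed 2-fold towards array A, with 0.124 on array A against 0.0413 on array B (1.58), and 0 genes passed 2-fold towards array B. Among all genes, 3.85% passed 2-fold towards array A and 7.30% towards array B, and counts this small cannot be told from these shares. Slc15a3 was under 2-fold after normexp correction, and Slc15a4 (−0.95) and Mfsd12 (−0.95) passed 2-fold towards array B when scaled to probes clear of background on both arrays and under quantile normalisation. In the amino acid response, low amino acid supply raises translation of Atf4 and transcription of its targets. The list named after it had 20 of 24 genes measured and a median of 0.43, against −0.02 over all genes. Because of how the list was chosen, its median, signs and 2-fold counts are not an independent comparison with all genes. They describe the listed genes only. The part of amino acid supply in these values was not tested. The median ran between 0.32 and 0.72 over the alternative settings. Of these 20, 16 lay above 0 and 4 below it, and of all measured genes 48.7% lay above 0. The 4 genes of these 20 past 2-fold towards array A were Nupr1, a stress-induced chromatin factor (2.16), Cth, which makes cysteine (1.72), Ddit3, a stress-induced transcription factor (1.66), and Ppp1r15a, which restores translation (1.53), against the 3.85% of all genes that passed it. Nupr1 had 31.5 on array A against 7.05 on array B. Psph, the last enzyme of serine synthesis, was the 1 gene past 2-fold towards array B (−1.29), against 7.30% of all genes, whereas Atf4 itself differed by 0.31 and asparagine synthetase Asns by 0.19. Nupr1, Cth, Ddit3 and Ppp1r15a stayed past 2-fold under all 11 alternative settings, and Psph under all but median scaling. With median scaling the list had 8 genes past 2-fold towards array A and 0 towards array B, and the shares of all genes were 8.86% and 3.96%. Chac1, Atf3, Vldlr and Stc2 were dim.

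The sensing machinery that reads amino acids at the lysosome lay on both sides of 0. Of 31 listed genes, 30 had a probe and 28 were measured, with 14 above 0, 14 below 0 and a median of −0.08. Among all measured genes, 48.7% lay above 0. None passed 2-fold towards array A (0 genes), and Castor2, a gene of the cytosolic arginine sensor family, passed 2-fold towards array B, with 1.005 on array A against 2.47 on array B (−1.30). The shares of all genes were 3.85% towards array A and 7.30% towards array B. The counts are too small to read as different from these shares. Rraga, a Rag GTPase that recruits mTORC1 to the lysosome, had 5.91 on array A against 3.13 on array B (0.91), which passed 2-fold with median scaling, and Mtor differed by 0.01.

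**Figure D4:**
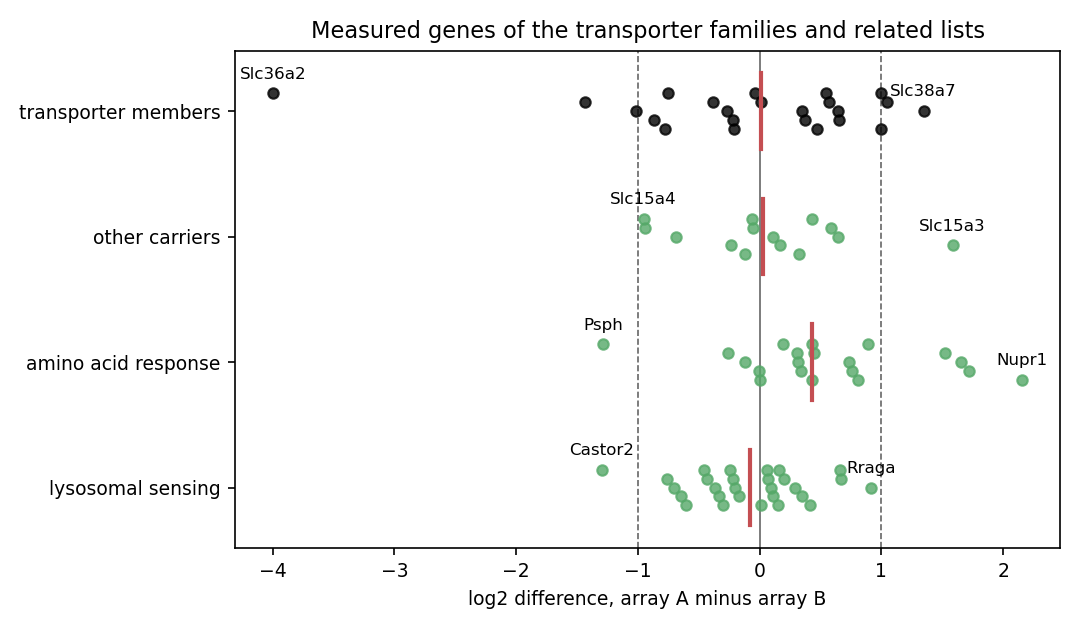
Difference on the log2 scale (array A minus array B) for the measured genes among the transporters (23), the other carriers (14), the amino acid response genes (20) and the lysosomal sensing genes (28). Each point is a gene, red bars are medians (0.01, 0.03, 0.43 and −0.08), dashed lines mark 2-fold, and the lowest and highest gene of each row is named.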

How the data were processed

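RNA of BaF/3 (#BEB1) and of parental Ba/F3 cells was labelled with cyanine 3 after amplification, and each sample was hybridised to 1 one-colour Agilent mouse array. The deposited scanner output holds intensity per spot, made by the authors with Agilent Feature Extraction 9.5.1.1, which subtracted the background. The deposited table holds log2 values, for which the authors set signals below 1.0 to 1.0 and scaled to the 75th percentile in GeneSpring. The medians of its columns are −5.45 for BaF/3 (#BEB1) and −5.21 for parental cells, and it is not centred, and its direction stays unknown. It served as an alternative only.

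Here the processed signals of non-control spots (floor 1.0) were divided by the 75th percentile of the array and put on a log2 scale, and spots, then probes, were averaged. A probe counted as well above background where at least as many of its spots did as did not, and a gene was measured where at least 1 probe did so on both arrays. Its difference is the mean over such probes. A gene seen on 1 array got a bound against the detection limit of the other array, taken as its dimmest probe that was well above background (27.6 intensity units on array A, 22.9 on array B), or against its own signal there if higher. Spot errors of a difference combine the errors that Feature Extraction gave for each array, as the root of the sum of squares. For a gene with several probes they treat the probes as independent. Probes were named through a RefSeq gene table (GRCm38.p6, names only): accessions named 26055 of 39429, current symbols 3195 and older symbols 930, while 9249 kept the file's name. Of the 72 member probes, 71 were named by accession and 1 by symbol.

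Members were named, those at least 2-fold apart or with such a bound probe by probe, and 1 member and 1 marker are not reported here. Protein stretches, and a choice of probes by their match to coding sequence, were planned and not made, and the first 30 bases of each probe are shown instead. The members and lists were chosen with earlier results of these data known. With 1 array per line there was no test. The steps were run on simulated arrays with spot noise only and with changes set well past 2-fold. That run held no spread between cultures and no change near the 2-fold limit, so it says nothing about either. Alternatives covered scaling, background correction, filters, outlier marks, probe summary, floor, the table and the threshold. Python 3.11.15 with numpy 2.4.6, pandas 2.3.3 and matplotlib 3.10.9 and R 4.3.3 with limma 3.58.1 (normexp with an offset of 50, quantile) were used.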

Additional observations from a re-analysis of the deposited data

How the results depend on the processing

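No paired analysis was possible because there was 1 array per cell line. The number of transporter genes past 2-fold towards array A was 2 of 23 in the report. It was 4 with scaling to the median, 4 with the table of the authors and 3 with normexp correction. It was 1 with scaling to the 75th percentile of probes that cleared the background on both, and 0 at a 3-fold threshold. Over the 26 genes well above background on at least 1 array (the looser filter) it was 3. Without a filter on dim probes it was 4 of 58. The shares of all genes past 2-fold towards array A and array B were 4.70% and 8.76% without the filter. They were 4.03% and 6.99% with the table of the authors, and no such share is given here for the 3-fold threshold. The number past 2-fold towards array B was 3 in the report and 1 at the 3-fold threshold. It was 2 with scaling to the median, quantile normalisation, normexp correction and the table of the authors. It was 4 of 26 with the looser filter, 4 of 26 with genes seen on 1 array at their bound, and 6 of 58 without a filter. The median difference, 0.01 in the report, was 0.31 with scaling to the median, −0.069 with scaling to the 75th percentile of probes that cleared the background on both, 0.15 with quantile normalisation, −0.16 without the filter, 0.090 with the median over probes and 0.14 with the brightest probe. Slc36a2 (−4.08 to −3.38) and Slc7a9 (−1.52 to −1.15) stayed past 2-fold towards array B, and Slc38a7 (1.17 to 1.64) towards array A, under each of the 11 settings, while Slc6a9 did so in 9, Slc43a2 in 7, and Slc38a2 and Slc1a1 passed 2-fold in 3 each. Among all genes, those past 2-fold towards array A and towards array B numbered 570 and 1082 in the report, 1313 and 587 with scaling to the median (69.1% of these on array A, against 34.5%), 454 and 1279 with scaling to the 75th percentile of probes that cleared the background on both, 385 and 707 with normexp correction, 1133 and 1876 with the looser filter and 1491 and 2777 with none. The signal over background limited the low genes: Slc6a4 and Slc36a3 have bounds only, and the difference of Slc1a1 fell to 0.42 with normexp. The spread between cultures is not known with 1 array per line.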
